A study of Mus musculus with 18 samples.

Results

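The heat shock and cochaperone genes were examined in bulk RNA sequencing of 18 mouse mammary tumors driven by p53 loss or mutation. Members were the protein-coding genes whose GENCODE symbol begins with Hspa, Hspb, Hspd, Hspe, Hsph, Hsp90, Dnaja, Dnajb or Dnajc, or is Bag1 to Bag6. This symbol rule used no measured value. It found 80 genes among 21685 protein-coding genes and 57126 genes in all. They were 7 small heat shock genes, 14 Hsp70 genes including Hsph1, 3 Hsp90 genes, 3 chaperonin genes, 45 Dnaj genes, 6 Bag genes and 2 genes for proteins that bind heat shock proteins, Hspbp1 and Hspbap1. The Dnaj genes comprised 4 Dnaja, 13 Dnajb and 28 Dnajc genes.

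Tumors of 3 genotypes were compared, namely 7 MaP R172H/- tumors (YZ2, YZ3, YZ4, YZ6, YZ7, YZ10 and YZ11), 5 MaP R245W/- tumors (JM1233, JM1564, RM0014, JM1126 and JM1133) and 6 MaP -/- tumors. The MaP -/- tumors came from 4 mice, with JM663-T1 and JM663-T2 from one animal, JM833-T1 and JM833-T2 from another, and JM836-T1 and JM779-T1 from the remaining mice. For the latter mice the study's list of tumors marks the other tumor of each (T2), of a different histology, as the sequenced one, so which tumor these libraries hold is unsure and the labels' names are kept. All mice were F1 females of a BALB/c and C57BL6/J cross that received Cre-expressing adenovirus into the mammary ducts as young adults. Cre removed a wild-type Trp53 cDNA from the locus of mammary epithelial cells, which leaves those cells with mutant p53 and a null allele, or with no p53, while stroma and immune cells keep wild-type Trp53. YZ2, YZ6, YZ10, JM1233, JM1564 and RM0014 also carried Rosa26LSL-TdTomato/+, a Cre reporter. The MaP R172H/- tumors were nonmetaplastic adenocarcinomas of luminal B or HER2-enriched type, whereas those of the other genotypes were triple-negative and several were metaplastic. MaP R172H/- libraries were read on a HiSeq instrument in 76-base pairs and all others on a NovaSeq instrument in 100-base pairs, so for MaP R172H/- tumors the instrument and the genotype cannot be told apart. Only the comparison of MaP R245W/- with MaP -/- tumors lies within 1 instrument.

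Heat shock proteins keep other proteins folded. Hsp70 binds exposed hydrophobic stretches, J-domain proteins of the Dnaj families deliver clients to Hsp70 and start its ATPase, and Bag proteins, Hspbp1 and the Hsp110 relatives release the nucleotide so that the client can leave. Hsp90 takes over clients close to their final fold, many of them kinases and transcription factors, while small heat shock proteins hold unfolded chains without using ATP. The p53 protein is a client of Hsp70 and Hsp90, and misfolded p53 mutants stay bound to these chaperones for longer than the wild-type protein. Under stress the transcription factor Hsf1 drives the inducible members through heat shock elements, inverted repeats of the unit nGAAn.

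Because Hsf1 binds heat shock elements, 3 alternating units were searched in RefSeq promoters (GRCm38.p6, 250 bases before to 50 after each start). The letters searched were GAA, TTC and GAA, or TTC, GAA and TTC, each set apart by 2 bases of any kind, on both strands, and these are reverse complements of each other. Of the 80 members, 64 had a promoter entry, and 4 of these (6.25%) held the element, compared with 179 of all 27025 symbols in the table (0.662%). The 4 were Hspd1, Hspe1, Dnajb6 and Hsph1. The other 16 members, among them Hspa8, Hspa9, Hsp90aa1, Hsp90ab1 and Hspb2, were not searched. A match is a description of these letters and not a measured binding site, and inducible genes such as Hspa1a, Hspa1b, Hspb1, Bag3 and Dnajb1 were searched without a match, which says only that these letters are not in this window. Hspd1 and Hspe1, the mitochondrial chaperonin and its lid, are transcribed away from each other from a shared promoter, and their element is 1 stretch read on opposite strands at chr1:55127212-55127241 of GRCm39. It lay 89 to 72 bases before the start of Hspe1 and 144 to 127 bases before that of Hspd1. The element of Dnajb6 lay on the plus strand at chr5:29940842-29940870, 46 to 34 bases before 1 RefSeq start and 127 to 115 before another. Capitals mark the matched letters, which for Hspd1 and Hspe1 are 2 overlapping matches:
Hspe1: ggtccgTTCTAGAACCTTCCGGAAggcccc
Hspd1: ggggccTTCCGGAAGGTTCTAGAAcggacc
Dnajb6: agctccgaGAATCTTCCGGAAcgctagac

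Trp53, the gene that was mutated or removed, was read first in every tumor as a check of the labels. Its level in CPM (counts scaled to library size with TMM factors) was 47.03 in YZ2, 45.78 in YZ3, 47.54 in YZ4, 41.67 in YZ6, 50.31 in YZ7, 41.36 in YZ10 and 10.83 in YZ11. The MaP R245W/- tumors gave 11.4 in JM1233, 27.08 in JM1564, 9.09 in RM0014, 27.63 in JM1126 and 58.99 in JM1133. MaP -/- tumors held between 9.429 CPM (JM663-T2) and 21.64 CPM (JM833-T2). Thus 6 of the MaP R172H/- tumors stood above every MaP -/- tumor, while YZ11, JM1233 and RM0014 lay within or below the range of tumors without p53. Against MaP -/- tumors the log2 fold change of Trp53 was 1.58 (SE 0.31, edgeR quasi-likelihood test, adjusted p = 0.00794) for MaP R172H/- and 0.95 (SE 0.44, adjusted p = 0.426) for MaP R245W/-. The first was no longer called with a skeletal muscle score as covariate (adjusted p = 0.0576). Gene counts do not separate mutant from wild-type transcripts, and in bulk tumors fewer cells of a type and less RNA per cell cannot be told apart.

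Total counts per tumor were between 23113578 and 37365062. Marker lists of other cell types varied among the tumors. The 20 skeletal muscle markers summed to 2688 CPM in JM1233, 359.5 in JM1133, 177.8 in JM1126 and 133.9 in YZ7, and to at most 56.87 elsewhere. The 10 epithelial markers, which define the labelled tissue, summed to between 1262 and 9056 CPM in 15 tumors but to 470.3 in JM1233, 326.3 in YZ7 and 147.5 in JM779-T1. Adipocyte markers reached 6573 CPM in JM833-T1 alone and 695.4 or less in the others.

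The chaperones were among the abundant transcripts of these tumors. Summed over all 80 members, their level was between 5840 CPM (JM833-T1) and 13000 CPM (JM779-T1), with a median of 9354. Of the summed CPM, a median of 33.4% fell to Hsp70 genes, 30.4% to Hsp90 genes, 15.7% to Dnajc genes and 1.63% to small heat shock genes. Per kilobase of transcript, which allows genes to be compared, the median level over 18 tumors was highest for Hsp90ab1 (733.2 CPM per kb), the constitutive cytosolic Hsp90, followed by Hspa8 (463.7), the constitutive Hsp70. Then came Hspa5 (195.0), the Hsp70 of the endoplasmic reticulum also known as BiP, Hspd1 (168.6), Hsp90b1 (167.1), the Hsp90 of the same compartment, Hspa9 (133.9), the mitochondrial Hsp70, and Hsp90aa1 (120.8), the inducible cytosolic Hsp90. The constitutive Hsp90ab1 and Hspa8 thus had the highest levels per kilobase.

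At the median, members varied less between tumors than genes at large, in a comparison not matched for level. The SD of log2 CPM over 18 tumors had a median of 0.453 over the 76 members tested, beside 0.578 over protein-coding genes and 0.668 over all genes tested. Small heat shock genes varied most among the classes, with a median SD of 0.986, and Bag and Hsp90 genes least, with 0.343 and 0.356. On the log2 CPM scale with a prior count of 1, which shrinks folds that rest on few counts, Hspb7 differed 297-fold from the lowest to the highest tumor, Dnajc22 190-fold and Hspa1a 41.5-fold, whereas Dnajc16 differed 1.45-fold. Hspb3, Dnajb8, Dnajc5b and Dnajc5g did not pass the filter on low counts in any fit, and their highest level was 0.8359 CPM, for Hspb3 in JM1233. Dnajc5g had 0 counts in all tumors, which allows up to 0.13 CPM in the shallowest of them and covers counting error only.

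**Figure D1:**
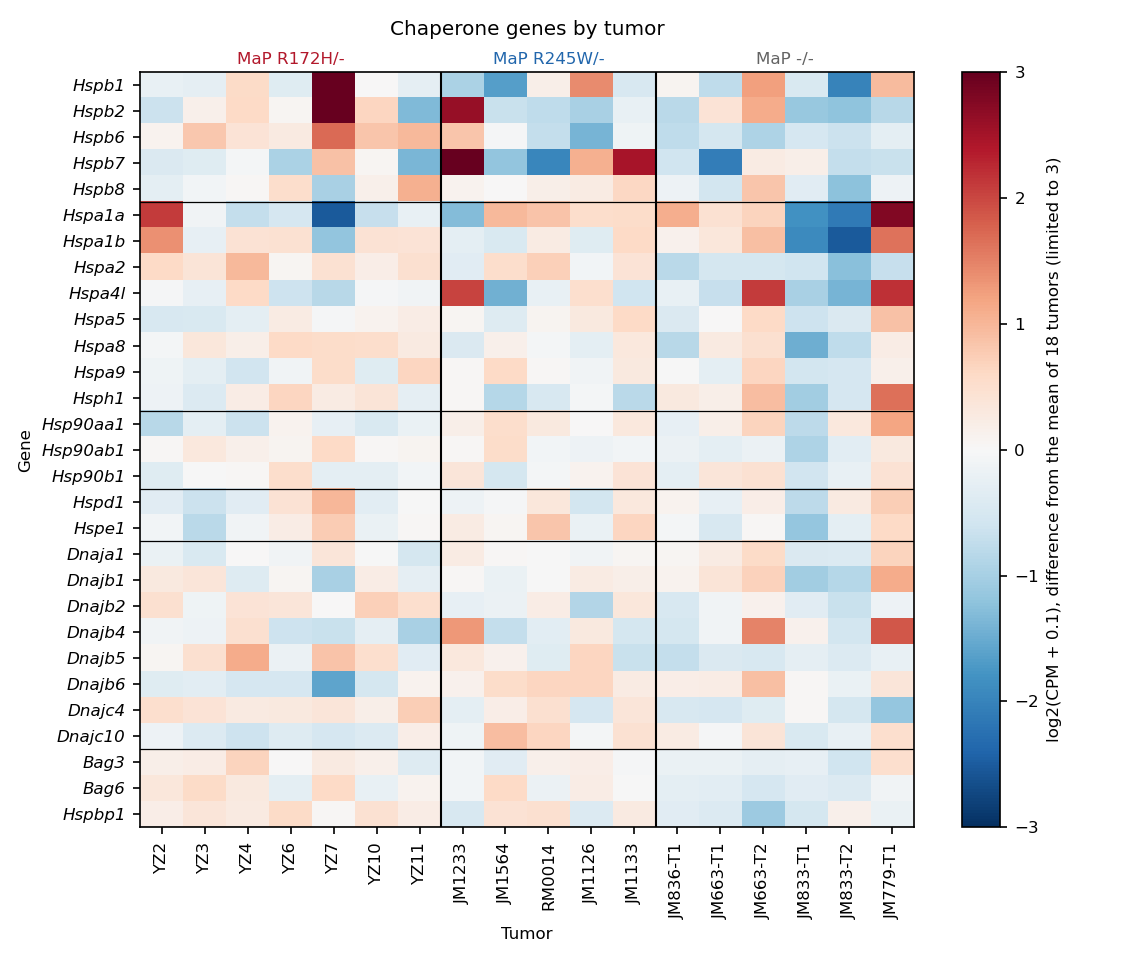
Log2 CPM of 29 members (rows, grouped as small heat shock, Hsp70, Hsp90, chaperonin, Dnaj, and Bag with Hspbp1) in each of the 18 tumors (columns), drawn as the difference from the mean of the gene over all tumors and limited to 3. Single tumors stand out more than genotypes: YZ7 for Hspb1 (313.9 CPM), JM1233 for Hspb7 (31.94 CPM) and JM779-T1 for Hspa1a (47.1 CPM), while JM833-T1, JM833-T2 and YZ7 are low for the inducible Hspa1a and Hspa1b.

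The first comparison asked which chaperone genes differ between MaP R172H/- and MaP -/- tumors. Of 76 members tested, 7 were higher in MaP R172H/- tumors and 0 were lower at an adjusted p below 0.05 (edgeR quasi-likelihood test, adjusted over 20954 genes). Over all genes tested 3.67% were called higher and 4.73% lower. The 7 were Hspa2, Hspb6, Dnajc4, Hspbp1, Dnajb5, Dnajb2 and Bag6. The count moved with single tumors, to 3 without YZ2, JM836-T1 or JM663-T1 and to 4 without YZ4, YZ10, JM663-T2, JM833-T1 or JM833-T2, and in these fits the calls over all genes also fell, from 1760 to between 1067 and 1635. With the tumors of 1 mouse summed, which leaves 4 MaP -/- samples, 4 members (Hspa2, Hspb6, Dnajc4 and Hspbp1) and 1126 genes were called, and Dnajb2, Dnajb5 and Bag6 were not (edgeR adjusted p = 0.0766, 0.111 and 0.141). Hspa2, Hspb6 and Dnajc4 were called in each of these fits, and with a skeletal muscle score as covariate the called members were Bag2, Dnajb2 and Hspa2, among 471 genes. At an unadjusted p below 0.05 there were 18 members, beside 24.7% of all genes. The median log2 fold change of the members was 0.03 and 41 of 76 lay above 0, beside a median of 0.05 over protein-coding genes, so the members as a whole did not move to either side. The values of Hspa2, Hspb6 and Dnajc4 did not overlap between these groups, being higher in all 7 MaP R172H/- tumors, and 0 members were lower without overlap, where all genes gave 2.01% and 2.62%.

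MaP R245W/- tumors, compared with the same MaP -/- tumors, gave 0 called members of 76, as edgeR called 0 of 21452 genes (0%). At an unadjusted p below 0.05 there were 6 members, among them Hspa2, Hspb7, Bag1, Bag6 and Dnajc6, beside 11.8% of all genes. DESeq2's Wald test called 3 of these members, among them Hspa2 and Hspb7, and 424 genes in all. The median log2 fold change of the members was 0.10, and that of protein-coding genes 0.12. Hspa2 and Dnajc30 were higher in every MaP R245W/- than in every MaP -/- tumor, and 0 members were lower in every one, where all genes gave 0.475% and 0.848%. Because both comparisons share the MaP -/- tumors, their values are given side by side below and are not independent of each other.

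Between the mutants, in a fit of all 18 tumors, 0 of 76 members were higher and 3 were lower in MaP R172H/- than in MaP R245W/- tumors, namely Dnajb6, Hspb7 and Dnajc10. Among the 22481 genes tested 2.91% were called higher and 6.49% lower. There were 14 members at an unadjusted p below 0.05, beside 25.9% of all genes, and the median log2 fold change of members was -0.04 (protein-coding genes -0.07). The count was 1 without RM0014, where the calls over all genes were 1525 in place of 2114. In Dnajb6, Bag1 and Hspa14 every MaP R172H/- tumor lay below every MaP R245W/- tumor, and in 0 members every one lay above, beside 4.05% and 1.78% of all genes.

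**Figure D2:**
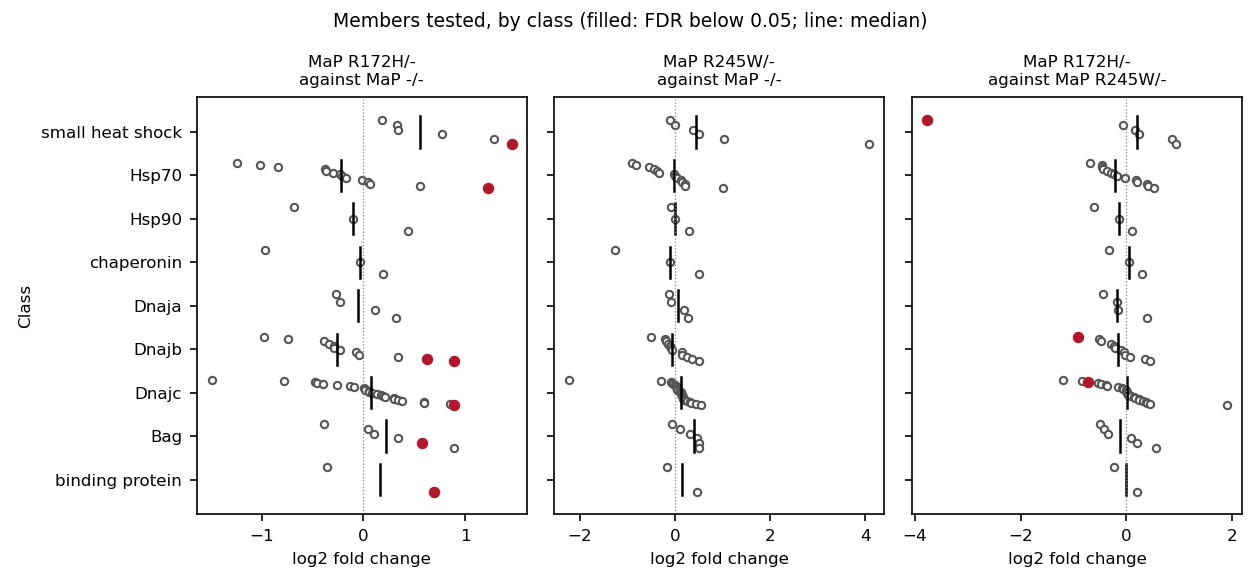
Log2 fold change (horizontal axis) of each member tested, by class (vertical axis), in the comparisons of MaP R172H/- with MaP -/-, MaP R245W/- with MaP -/- and MaP R172H/- with MaP R245W/- tumors. Each point is a gene, filled where the adjusted p is below 0.05, and vertical lines are class medians. There are 7 filled points in the first panel, 0 in the second and 3 in the third, and most medians lie close to 0.

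Small heat shock genes lay above 0 in the comparison of MaP R172H/- with MaP -/- tumors for 6 of 6 genes tested, with a median log2 fold change of 0.55, but only Hspb6 passed the test. Of all 20954 genes tested 10518 lay above 0. Hspb2, Hspb7 and Hspb9 had medians of at most 0.6711 CPM in both groups. Without YZ7 the value of Hspb1 was -0.24. Without YZ7 and JM779-T1, chosen after seeing the data, that of Hspb7 was -0.03 and that of Hspb2 0.12. Hspb6 (chr7:30251603-30256218, GRCm39), known as Hsp20 and abundant in muscle, was 5.657 CPM at the lowest, 9.29 at the median and 17.21 at the highest in MaP R172H/- tumors. In the MaP R245W/- tumors JM1233, JM1564, RM0014, JM1126 and JM1133, the order kept from here on, it was 9.403, 5.162, 3.183, 1.951 and 4.849 CPM. MaP -/- tumors spanned 2.704 to 4.3 CPM around a median of 3.47, so that the R172H group did not overlap with them and the R245W group did. The log2 fold change of Hspb6 against MaP -/- was 1.46 (SE 0.27, edgeR adjusted p = 0.00566) for MaP R172H/- and 0.50 (SE 0.36, adjusted p = 0.595) for MaP R245W/-. Between the mutants it was 0.93 (SE 0.35, adjusted p = 0.0985). Over 24 alternatives Hspb6 stayed called against MaP -/- in 23, the exception being a skeletal muscle score as covariate (adjusted p = 0.0589, the highest, with 4.05e-06 the lowest). Its transcript overlaps Lin37 on the other strand over 12.7% of its length, and the strand setting of the counting is not given in the sources used here.

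Hspb7 (chr4:141148090-141152625, GRCm39), a small heat shock protein of heart and skeletal muscle, was 31.94 CPM in JM1233, 0.2164 in JM1564, 0.08602 in RM0014, 1.407 in JM1126 and 3.894 in JM1133. In MaP R172H/- tumors it lay between 0.1806 and 1.232 CPM with a median of 0.4592, and in MaP -/- tumors between 0.07263 and 0.7583 CPM with a median of 0.366. Only JM1233, JM1133 and JM1126 exceeded the highest tumor of the other groups. Hspb7 was called lower in MaP R172H/- than in MaP R245W/- tumors, with a log2 fold change of -3.77 (SE 0.999, edgeR adjusted p = 0.0243). The same 3 tumors, with YZ7, were the highest in skeletal muscle markers. Of the 16 muscle markers tested 12 were also called lower, beside 6.49% of all genes. With a muscle score as covariate the value turned to 1.47 (adjusted p = 0.247), without JM1233 it was -1.34 (adjusted p = 0.28) and without JM1233 and JM1133 it was -0.05 (adjusted p = 0.975). Against MaP -/- tumors the log2 fold change in MaP R245W/- tumors was 4.09 (SE 1.26, adjusted p = 0.36), and -1.99 with the muscle score.

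Hspb1, the mouse Hsp25, is an inducible small heat shock protein that is also abundant in smooth muscle and myoepithelial cells. Other genes share 56.7% of its 76-base and 55.4% of its 100-base stretches, so its level is uncertain. Its highest value in MaP R172H/- tumors was 313.9 CPM in YZ7, against 59.1 in the next tumor, a median of 34.07 and a lowest value of 31.07. MaP R245W/- tumors held 20.36, 12.61, 45.16, 107.1 and 28.25 CPM and MaP -/- tumors 9.857 to 93.17 with a median of 35.48. The groups overlapped throughout, and the log2 fold change against MaP -/- was 0.77 (SE 0.66, edgeR adjusted p = 0.504) for MaP R172H/-, and -0.24 without YZ7. The 9 smooth muscle and myoepithelial markers summed to 1803 CPM in YZ7, the highest of all tumors, but YZ4 held 1491 CPM of them with 59.1 CPM of Hspb1, and JM779-T1, the lowest at 68.15 CPM, held 76.2 CPM of Hspb1. Hspb2, a muscle small heat shock protein, was also highest in YZ7 (5.502 CPM) and JM1233 (4.179 CPM) and at most 1.418 CPM elsewhere. What part muscle or myoepithelial cells have in these levels was not tested beyond the muscle covariate.

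**Figure D3:**
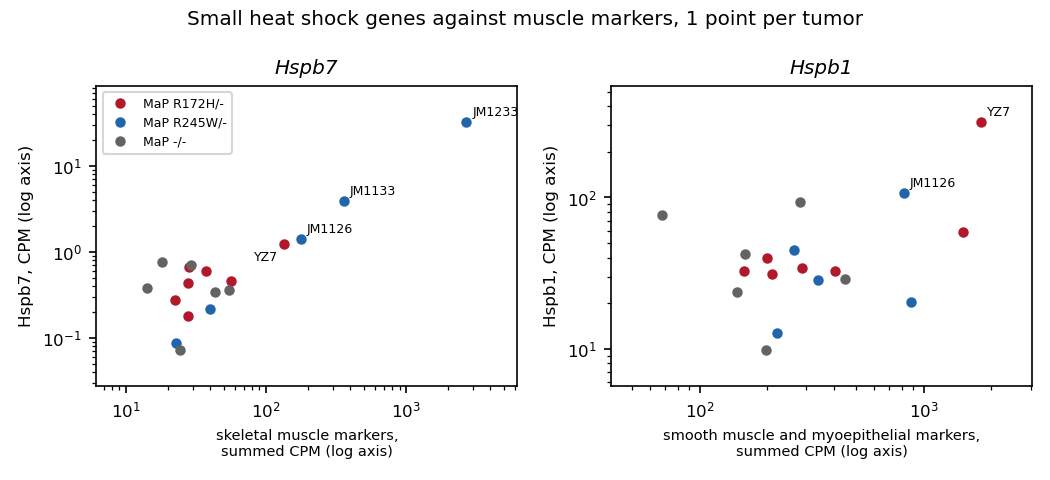
Left, Hspb7 against the summed CPM of 20 skeletal muscle markers. Right, Hspb1 against the summed CPM of 9 smooth muscle and myoepithelial markers. Both axes are logarithmic, each point is 1 of 18 tumors, and colors give the genotype. The highest Hspb7 (31.94 CPM, JM1233) and the highest Hspb1 (313.9 CPM, YZ7) fall in the tumors with the highest marker sums.

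Hspb8, the partner of Bag3 in selective autophagy of damaged proteins, overlapped between all groups, from 38.38 CPM in JM833-T2 to 188.6 in YZ11. Its log2 fold change against MaP -/- was 0.33 (adjusted p = 0.586) for MaP R172H/- and 0.38 (adjusted p = 0.631) for MaP R245W/- by edgeR. Hspb9, known from testis, lay at or below 1.012 CPM in all tumors and its transcript lies wholly opposite to Rab5c.

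Among the 14 Hsp70 genes 1 rose in MaP R172H/- against MaP -/- tumors and 4 had positive log2 fold changes, the class median being -0.22. Over all genes tested 3.67% were called higher there and 10518 of 20954 lay above 0. The riser was Hspa2 (chr12:76450151-76453712, GRCm39), an Hsp70 best known from the testis, where male meiosis needs it. MaP R172H/- tumors held 13.89 CPM at the lowest, 18.31 at the median and 26.21 at the highest. MaP R245W/- tumors held 10.48, 19.04, 21.88, 12.47 and 17.56 CPM, and MaP -/- tumors 5.502 to 9.224 CPM with a median of 8.437. Every tumor of either mutant group therefore lay above every MaP -/- tumor. Against MaP -/- the log2 fold change was 1.22 (SE 0.19, edgeR adjusted p = 0.00201) in MaP R172H/- and 1.01 (SE 0.24, adjusted p = 0.334) in MaP R245W/- tumors, the latter on 1 instrument. Of 23 alternatives for MaP R245W/- tumors, only 1, DESeq2's Wald test, called Hspa2 (adjusted p = 0.00502). The highest edgeR adjusted p there was 0.7, with the tumors of 1 mouse summed. Between the mutants the log2 fold change was 0.18 (SE 0.21, edgeR adjusted p = 0.628). Hspa2 was called in MaP R172H/- tumors under 24 of 24 alternatives, with log2 fold changes between 1.09 and 1.28 and adjusted p between 1.46e-08 and 0.0229.

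The stress-inducible Hspa1a and Hspa1b were not called in any comparison. Hspa1a was 1.1 to 29.58 CPM in MaP R172H/- tumors (median 4.734), 2.717, 13.48, 12.44, 9.882 and 9.965 CPM in MaP R245W/- tumors and 1.485 to 47.1 CPM in MaP -/- tumors (median 10.18). Hspa1b followed with 23.95 to 140.1, then 44.45, 39.38, 64.6, 41.96 and 81.7, then 9.451 to 167.2 CPM. Within MaP -/- tumors alone the spread thus ran from the lowest Hspa1b of the series, in JM833-T2, to the highest, in JM779-T1. The log2 fold change of MaP R172H/- against MaP -/- tumors was -0.84 (SE 0.81, edgeR adjusted p = 0.557) for Hspa1a and 0.04 (SE 0.57, adjusted p = 0.973) for Hspa1b. These are near-identical copies, with 54% and 55.6% of 76-base stretches shared with other genes, so the split of reads between them is uncertain. Summing them changed no count of called members.

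Constitutive Hsp70 genes overlapped between the genotypes. Hspa8 was 916 to 1458 CPM (median 1218) in MaP R172H/- tumors, 711, 1061, 917.4, 781.2 and 1203 CPM in MaP R245W/- tumors, and 349.9 to 1348 CPM (median 846.2) in MaP -/- tumors. Its log2 fold change in MaP R172H/- against MaP -/- tumors was 0.55 (SE 0.30, edgeR adjusted p = 0.271), and 67.7% of its 76-base stretches occur in other genes. Hspa5, an indicator of load on the endoplasmic reticulum, was 615 to 1739 CPM over all tumors, and Hspa9 was 318 to 744.8 CPM. Their log2 fold changes in MaP R172H/- against MaP -/- tumors were -0.17 (SE 0.27) and 0.07 (SE 0.26). Of the Hsp110 relatives, Hsph1 had a log2 fold change against MaP -/- of -0.37 (SE 0.37) in MaP R172H/- and -0.90 (SE 0.43, edgeR adjusted p = 0.438) in MaP R245W/- tumors. Hspa4l reached 340.5 CPM in JM1233, 358.3 in JM663-T2 and 377.4 in JM779-T1 and was at most 125.9 CPM in the other tumors. Hspa12a, a distant relative of the family, fell outside the rest of its group in a tumor of each genotype and its log2 fold change in MaP R172H/- against MaP -/- tumors was -1.24 (SE 0.58, edgeR adjusted p = 0.208). It was -0.62 without JM833-T1, and -1.81 without YZ7, where it was called (adjusted p = 0.0466).

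The 3 Hsp90 genes gave 0 calls in every comparison. Over all genes 3.67% were called higher and 4.73% lower in MaP R172H/- against MaP -/- tumors. The shares were 0% in MaP R245W/- against MaP -/- tumors, and 2.91% higher and 6.49% lower between the mutants. Hsp90aa1, the inducible form, was 229.1 to 440.1 CPM (median 331.9) in MaP R172H/- tumors, 459.4, 587.9, 501.9, 413 and 505.9 CPM in MaP R245W/- tumors and 236.8 to 927.2 CPM (median 485.6) in MaP -/- tumors. All but 1 of the MaP R245W/- tumors lay above the highest MaP R172H/- tumor. Its log2 fold change in MaP R172H/- tumors was -0.68 (SE 0.28, edgeR unadjusted p = 0.0289, adjusted p = 0.15) against MaP -/- and -0.61 (SE 0.26, adjusted p = 0.142) against MaP R245W/- tumors. Hsp90ab1, the constitutive form, leaned the other way against MaP -/- tumors, with 0.44 (SE 0.20, adjusted p = 0.199). Its values were 1978 to 2932 CPM (median 2050), then 1987, 2863, 1847, 1750 and 1841, then 1030 to 2364 CPM (median 1654). Hsp90b1 had log2 fold changes of -0.10 (MaP R172H/-) and 0.01 (MaP R245W/-) against MaP -/- tumors. Of the 76-base stretches of Hsp90aa1, 49.1% occur in other genes.

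Neither Hspd1 nor Hspe1, whose shared element is printed above, was called. Hspd1 was 268 to 826.5 CPM in MaP R172H/- tumors, 376.5, 405, 525, 285.8 and 515.4 CPM in MaP R245W/- tumors and 241.8 to 694 CPM in MaP -/- tumors. Hspe1 was 36.07 to 107.3, then 75.29, 65.52, 113.4, 55.36 and 99.04, then 28.22 to 95.37 CPM. Both were lowest in JM833-T1, and within MaP R172H/- tumors both were lowest in YZ3 and highest in YZ7. Other genes share 33.3% of the 76-base and 26.9% of the 100-base stretches of Hspd1. For Hspe1 these shares are 23.5% and 20.4%, so both levels are uncertain.

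Of 42 Dnaj genes tested, 3 rose in MaP R172H/- against MaP -/- tumors, 23 lay above 0 and the median log2 fold change was 0.02, where 3.67% of all genes were called higher. Dnajc4 (chr19:6965275-6969995, GRCm39) was the clearest, with 10.89 to 16.16 CPM (median 12.41) in MaP R172H/- tumors, 7.881, 10.97, 13.48, 6.716 and 12.33 CPM in MaP R245W/- tumors and 4.235 to 9.931 CPM (median 6.783) in MaP -/- tumors. The R172H group lay wholly above the MaP -/- group, and the R245W group lay across both. Its log2 fold change was 0.89 (SE 0.20, edgeR adjusted p = 0.0135) for MaP R172H/- and 0.55 (SE 0.27, adjusted p = 0.452) for MaP R245W/-. It stayed called in 23 of 24 alternatives, with adjusted p between 3.45e-05 and 0.102, the last with the muscle score. Dnajb5 rose by 0.89 (SE 0.25, adjusted p = 0.0424), from 6.172 to 8.728 CPM in MaP -/- tumors to 8.081 to 22.33 CPM. Dnajb2, a J protein with ubiquitin-binding motifs that is abundant in neurons, rose by 0.62 (SE 0.17, adjusted p = 0.0424), from 24.3 to 42.56 CPM to 35.54 to 63.39 CPM. Both groups overlapped for these 2 genes, and each was called in 9 of 24 alternatives.

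Dnajb6 (chr5:29940641-30023132, GRCm39), a J protein that holds back the aggregation of polyglutamine chains and whose element is printed above, separated the mutants. MaP R172H/- tumors held 17.78 CPM at the lowest, 38.03 at the median and 57.97 at the highest. MaP R245W/- tumors held 58.6, 78.32, 83.79, 84.17 and 63.84 CPM, each above every MaP R172H/- tumor. MaP -/- tumors overlapped with both, with 47.19 to 101.0 CPM and a median of 62.29. The log2 fold change was -0.92 (SE 0.23, edgeR adjusted p = 0.0177) against MaP R245W/- and -0.74 (SE 0.24, adjusted p = 0.0742) against MaP -/- tumors. The call held in 28 of 30 alternatives and was lost without RM0014 (adjusted p = 0.0533) or JM1126 (adjusted p = 0.0511), with 0.00565 the lowest. Other genes share 36.5% of its 76-base and 34.1% of its 100-base stretches, and read length differs between these groups, so its level is uncertain.

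Dnajc10, an endoplasmic reticulum J protein that reduces disulfide bonds and is also called ERdj5, was 126.8 to 222.6 CPM (median 146.7) in MaP R172H/- tumors. It was 176.9, 370.3, 303.1, 185.7 and 267.6 CPM in MaP R245W/- tumors and 140.5 to 274.0 CPM (median 209.6) in MaP -/- tumors. The groups overlapped. The log2 fold change between the mutants was -0.72 (SE 0.21, edgeR adjusted p = 0.0395) and was called in 17 of 30 alternatives (adjusted p between 0.0144 and 0.114). It was lost without YZ2, YZ3, YZ4, YZ6, YZ7, YZ10, JM1564, RM0014 or JM1133, each in turn.

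The main partners of cytosolic Hsp70, Dnaja1 and Dnajb1, were not called. Dnaja1 was 85.69 to 197.6 CPM and Dnajb1 28.04 to 125.6 CPM over the 18 tumors, both highest in JM779-T1. In MaP R172H/- against MaP -/- tumors their log2 fold changes were -0.27 (SE 0.22) and -0.29 (SE 0.34), and edgeR's adjusted p was 0.472 and 0.641. The transcript of Dnaja1 overlaps Smu1 on the other strand over 85.3% of its length. Other genes share 16.6% of its 76-base stretches, so the level of Dnaja1 is uncertain. Among the genes with the largest changes, Dnajc22 had -1.49 (SE 0.94, adjusted p = 0.347), with 0.1354 to 8.033 CPM in MaP R172H/- and 0.8242 to 32.36 CPM in MaP -/- tumors. Dnajc6, the auxilin that uncoats clathrin vesicles in neurons, had -2.22 (SE 0.82, adjusted p = 0.368) in MaP R245W/- against MaP -/- tumors, where 5 values between 0.5345 and 1.493 CPM faced 0.6466 to 12.02 CPM. The highest MaP -/- values, 9.284 and 12.02 CPM, were those of JM833-T1 and JM833-T2, tumors of 1 mouse. The other MaP -/- tumors held at most 2.252 CPM. Neither the change of Dnajc22 nor that of Dnajc6 was called.

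Bag genes lay above 0 in 5 of 6 cases in each mutant group against MaP -/- tumors, with median log2 fold changes of 0.22 and 0.39. Of all genes tested 10518 of 20954 lay above 0 for MaP R172H/- and 11118 of 21452 for MaP R245W/- tumors. Bag6, which guards newly made membrane proteins and sends faulty ones to the proteasome, was 101 to 187.5 CPM (median 153.2) in MaP R172H/-, 117.8, 188.9, 109.9, 144.9 and 124 CPM in MaP R245W/- and 87.93 to 114.8 CPM (median 99.22) in MaP -/- tumors. Only the tops of the MaP -/- range overlapped with the mutants. Its log2 fold change was 0.58 (SE 0.17, edgeR adjusted p = 0.0467) in MaP R172H/- and 0.46 (SE 0.16, adjusted p = 0.362) in MaP R245W/- tumors, and 8 of 24 alternatives kept the first call. Bag3, the inducible cochaperone of Hspb8, had 0.34 (SE 0.20, adjusted p = 0.331) and 0.12 (SE 0.21, adjusted p = 0.841). Bag1, which joins Hsp70 to the proteasome, was 120.2, 142.7, 127, 131 and 163.4 CPM in MaP R245W/- tumors and 87.5 to 119.5 CPM in MaP R172H/- tumors, without overlap, at a log2 fold change of -0.43 (SE 0.15, adjusted p = 0.0862). Hspbp1, an exchange factor of Hsp70, rose in MaP R172H/- against MaP -/- tumors by 0.69 (SE 0.19, adjusted p = 0.0356), from 10.25 to 24.44 CPM to 22.49 to 32.36 CPM, and was called in 10 of 24 alternatives.

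**Figure D4:**
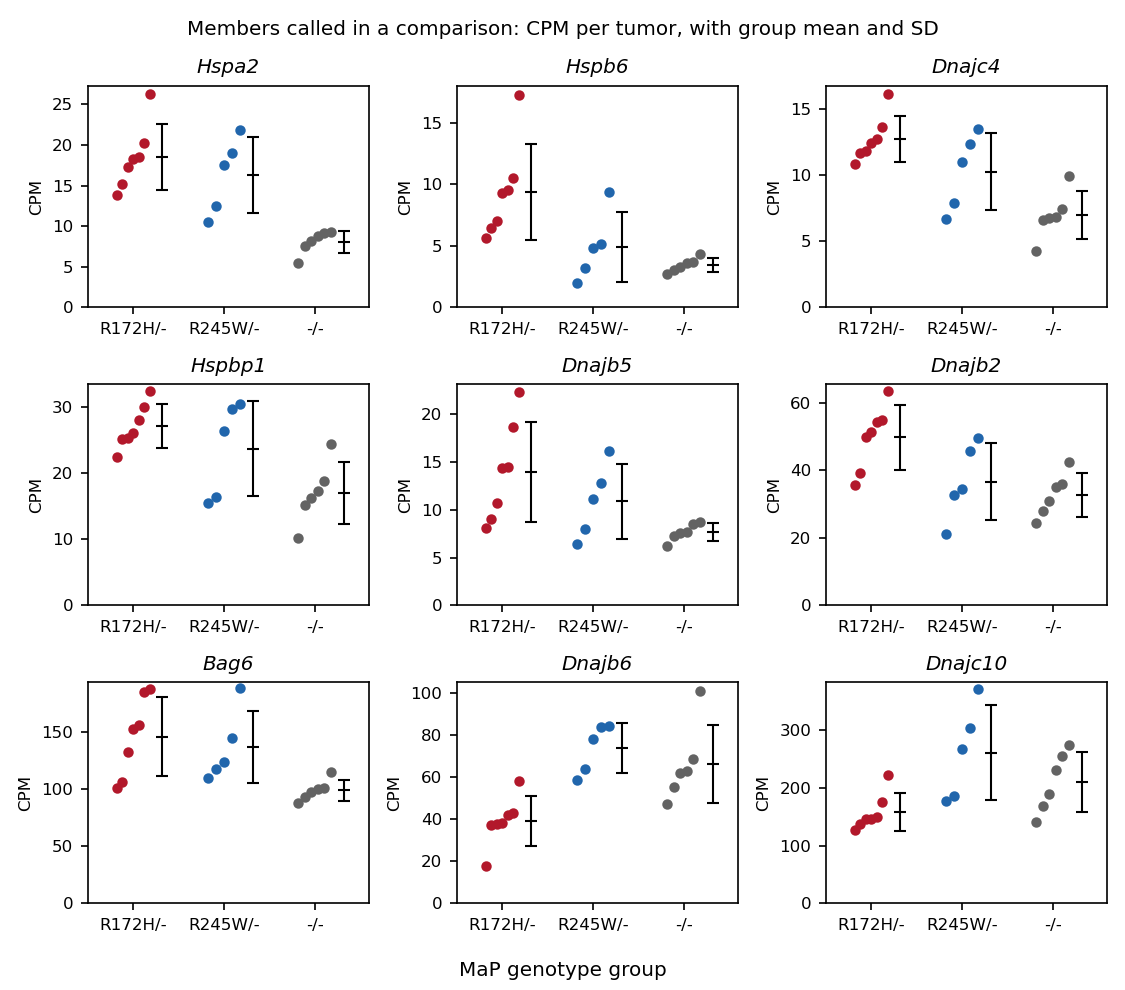
CPM (vertical axis, from 0) of the 7 members called in MaP R172H/- against MaP -/- tumors and of Dnajb6 and Dnajc10, called between the mutants, by MaP genotype. Points are tumors, and bars give the group mean and SD. Hspa2 separates both mutants from MaP -/- tumors (highest 9.224 CPM), Dnajb6 separates the mutants from each other, and the other genes overlap in at least 1 pair of groups.

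Regulators of the heat shock response and partners of the chaperones, which the symbol rule left out, were read for context. Shared stretches were not counted for these genes. Each comparison of MaP R172H/- tumors also crosses the instruments and read lengths. Hsf1, the main factor of the response, was higher (log2 fold change 0.61, SE 0.16, edgeR adjusted p = 0.0302) and Hsf2, a related factor, lower (-0.68, SE 0.18, adjusted p = 0.0361) in MaP R172H/- than in MaP -/- tumors. Median levels of Hsf1 were 58.6, 36.36 and 38.39 CPM in MaP R172H/-, MaP R245W/- and MaP -/- tumors, and those of Hsf2 20.81, 33.07 and 35.7 CPM. Hsf2 was also lower than in MaP R245W/- tumors (-0.71, adjusted p = 0.0333). The other 3 factors or regulators of the list were not called in any fit.

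Of 17 Hsp90 cochaperones, 2 rose and 1 fell in MaP R172H/- against MaP -/- tumors, with a list median of 0.02. Over all genes 3.67% rose and 4.73% fell there, and 6.49% were lower between the mutants. Cdc37, which brings kinases to Hsp90, rose by 0.80 (SE 0.16, edgeR adjusted p = 0.00973) without overlap, and Stub1, the ubiquitin ligase CHIP that acts on clients of Hsp70 and Hsp90, by 0.88 (SE 0.23, adjusted p = 0.0313). Ptges3, the cochaperone p23 that closes the Hsp90 clamp, had a log2 fold change of -1.23 (SE 0.18, adjusted p = 0.00142) against MaP -/- and of -1.45 (SE 0.18, adjusted p = 5.6e-05) against MaP R245W/- tumors. Its median was 63.91 CPM in MaP R172H/- against 188.2 and 158.2 CPM in the other groups, and its values did not overlap with either. Of the 17 genes, 1 was higher and 1 lower without overlap against MaP -/- tumors, beside 2.01% and 2.62% of all genes. Between the mutants 1 was lower without overlap, beside 4.05% of all genes. Sugt1 was lower between the mutants (-0.62, adjusted p = 0.0307).

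Prefoldin hands unfolded actin and tubulin to the cytosolic chaperonin ring. Of its 6 genes, 1 was higher and 2 were lower in MaP R172H/- against MaP -/- tumors, beside 3.67% and 4.73% of all genes. Against MaP R245W/- tumors 3 were lower, beside 6.49% of all genes. Vbp1 had -1.04 (SE 0.19, edgeR adjusted p = 0.00586) and -1.34 (SE 0.20, adjusted p = 0.000418) in these comparisons, and Pfdn4 had -0.71 and -1.03. Pfdn5 was the gene that rose (0.59, adjusted p = 0.0462), and Pfdn1 was the remaining gene lower than in MaP R245W/- tumors (-0.78, adjusted p = 0.0408). All 8 genes of the ring lay below 0 in both comparisons, with medians of -0.28 and -0.56, and 1 of them, Cct5, was called, against MaP R245W/- tumors (-0.68, adjusted p = 0.0363).

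For folding in the endoplasmic reticulum, 0 of 14 genes were called against MaP -/- tumors, beside 3.67% higher and 4.73% lower over all genes. Between the mutants 1, Pdia6, was lower (-0.71, adjusted p = 0.0491 by edgeR), beside 6.49% of all genes. Of 8 mitochondrial protease and import genes, Clpp rose against MaP -/- tumors (0.80, adjusted p = 0.0267) and Grpel1, the exchange factor of Hspa9, was lower between the mutants (-0.63, adjusted p = 0.0259). Of the 5 genes tested among related chaperones, which include Cryab and Trap1, 0 were called in any fit. In MaP R245W/- against MaP -/- tumors all these lists had 0 called genes. There edgeR called 0 of 21452 genes, so this count says nothing about the lists. The same holds for the slopes on Trp53 level given below, where edgeR called 0 of 20882 genes.

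The relation to Trp53 level was read within the mutant tumors, with genotype in the fit, as the change of a gene per doubling of Trp53 CPM. EdgeR called 0 of 76 members and 0 of 20882 genes (0%), and the median slope of the members was 0.01. At an unadjusted p below 0.05 there was 1 member, beside 3.14% of all genes. This was Hspa4, an Hsp110 relative and exchange factor named here after its values were seen, with a slope of 0.27 (SE 0.09, edgeR unadjusted p = 0.00895, adjusted p = 1). Hspa4 was 200.3 CPM in YZ11, 205.6 in JM1233 and 275.4 in RM0014, the mutant tumors lowest in Trp53, and 275.0 to 364.4 CPM in the other mutant tumors. By class the median slope was -0.16 for small heat shock, -0.01 for Hsp70, 0.03 for Hsp90 and 0.01 for Dnaj genes. The slopes of Hspa8 (0.12, SE 0.11), Hsp90aa1 (-0.03, SE 0.11), Hsp90ab1 (0.06, SE 0.12), Hspa1b (0.06, SE 0.20) and Dnajb1 (0.07, SE 0.13) did not pass the test, adjusted or not. Hspb7 (-0.50, SE 0.81) and Hspb1 (0.45, SE 0.48) had larger slopes with wide errors, and that of Hspb7 was 1.48 without JM1233 (edgeR adjusted p = 0.997). DESeq2's Wald test called 25 genes but 0 members.

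Among MaP R172H/- tumors YZ11 lay apart from the other 6 in Trp53, so no correlation over all 7 is given. Over the 6 others, whose Trp53 spanned only 41.36 to 50.31 CPM, 7 of 76 members had a Pearson correlation of log2 CPM with an exact two-sided permutation p below 0.05, beside 8.54% of all 20882 genes, and 0 members and 0 genes passed adjustment. Hspbp1 had r = -0.952 (exact permutation p = 0.00556, adjusted p = 0.428) and rho = -0.886 (exact permutation p = 0.0333, adjusted p = 0.588), with r = -0.957 after the 2 tumors farthest from the median Trp53 were left out. Values without these 2 rest on 4 tumors only. Dnajc17 had r = 0.914 (exact permutation p = 0.00972, adjusted p = 0.468) and rho = 0.83 (exact permutation p = 0.0583, adjusted p = 0.6), with r = 0.80 without those 2 tumors. The smallest p that 6 tumors gave here was 0.00139 for r and 0.00278 for rho. Hsp90ab1 had r = 0.70 (exact permutation p = 0.114, adjusted p = 0.629) and rho = 0.714 (exact permutation p = 0.136, adjusted p = 0.69), with r = 0.645 without the 2 farthest. Hspb8 had r = -0.856 (exact permutation p = 0.025, adjusted p = 0.535), with r = -0.861 without the 2 farthest. Its rho was -0.771 (exact permutation p = 0.103, adjusted p = 0.673). No correlation is given for the 5 MaP R245W/- tumors, whose Trp53 spanned 9.09 to 58.99 CPM, and they enter the slopes above.

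**Figure D5:**
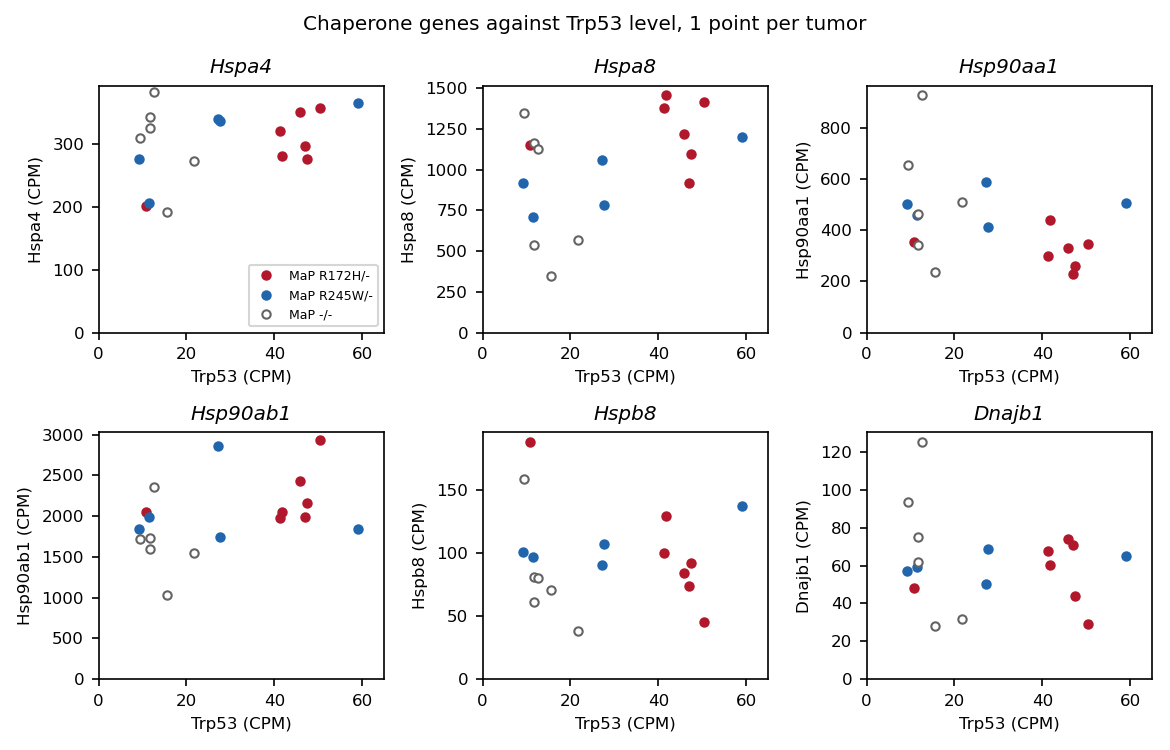
CPM of Hspa4, Hspa8, Hsp90aa1, Hsp90ab1, Hspb8 and Dnajb1 (vertical axes, from 0) against Trp53 CPM (horizontal axes), 1 point per tumor. MaP R172H/- and MaP R245W/- tumors are filled and MaP -/- tumors open. The filled points of Hspa4 are lowest in YZ11 (200.3 CPM) and JM1233 (205.6 CPM), where Trp53 is low, and the other genes spread widely at either end of the Trp53 range.

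JM779-T1, a MaP -/- tumor, had the highest level of 14 of 76 members (18.4%), while it was the highest tumor for 7.5% of all genes and 7.78% of protein-coding genes. Among them were Hspa1a, Hspa1b, Hspa4, Hspa4l, Hspa5, Hsph1, Hsp90aa1, Dnaja1, Dnaja4, Dnajb1, Dnajb4, Dnajb9 and Dnajc22. Hspa1a, Hsph1 and Dnajb1 are inducible genes of the cytosol. In JM779-T1 Hsp90aa1 was 927.2 CPM, Hsph1 358.2, Hspa1b 167.2 and Dnajb1 125.6. JM833-T1 and JM833-T2, both of 1 mouse of the same genotype, held 14.34 and 9.451 CPM of Hspa1b and 28.04 and 31.9 CPM of Dnajb1. YZ7 was likewise the highest for 14 members (18.4%), but also for 13.8% of all genes, and its set was made up of other members, among them Hspb1, Hspb2, Hspb6, Hsp90ab1 and Hspd1. JM779-T1 and YZ7 are the tumors lowest in epithelial markers, and what part this has in their chaperone levels was not tested. Without these tumors and JM1233, a choice made after seeing the data, 8 members were called in MaP R172H/- against MaP -/- tumors, 0 in MaP R245W/- against MaP -/- and 5 between the mutants, the last 5 including Dnajb6 and Dnajc10 but not Hspb7. Over all genes these fits called 1908, 1 and 2543 genes, beside 1760, 0 and 2114 with all tumors.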

How the data were processed

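The deposited values are gene counts of 18 tumors, made by the authors from ribosomal-RNA-depleted stranded libraries (TruSeq Stranded Total RNA, Ribo-Zero Gold) with STAR 2.7.10b, RSEM 1.3.3, GRCm39 and GENCODE M34, and FastQC 0.11.9 for quality. The counts are whole numbers. Whether the authors rounded them, and the strand setting, are not given in the sources used here. Total counts were 23113578 to 37365062 per tumor. Of 57126 rows, 56620 matched the annotation. Members and gene lists were chosen with earlier results of these data known. Counts were filtered with filterByExpr, scaled with TMM and tested with edgeR 4.0.16 (quasi-likelihood) over all genes, called at an adjusted p (Benjamini-Hochberg) below 0.05. Fits were MaP R172H/- against MaP -/-, MaP R245W/- against MaP -/-, both mutants in a fit of 18 tumors, and a slope on Trp53 log2 CPM with genotype in 12 mutant tumors. Nothing says that samples of a genotype are independent beyond being separate tumors, and 2 mice gave 2 tumors each. Genes named by rule were the main members of each class, members called (at most 10 a direction in a fit) and the 3 largest changes in each direction. Hspa4, Hspa14, Bag1, Bag2, Hspb9, Dnajc16, Dnajc17, Dnajc30, Dnajb4 and Dnajc5g were named after their values were seen. Shared stretches of 76 and 100 bases were counted between transcripts, and promoters were taken from RefSeq (GRCm38.p6). Alternatives used DESeq2 1.42.0, other filters, marker scores as covariates, and fits without single tumors. Scripts were tested on simulated counts. The SE given with an edgeR result was the absolute log2 fold change or slope divided by the square root of its F statistic. It is an approximation. The limit given for 0 counts covers counting error only. Results of 1 member are not reported here.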

Additional observations from a re-analysis of the deposited data

Results flagged for a closer look

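Within a genotype, 16 CPM values lay farther from the rest than Dixon's limit in 102 groups tested, and they fell in 9 tumors. The limit flags about 5% of groups by chance only where values are normally distributed and groups are independent. Here the groups share tumors, and some genes were named for their large changes. The number flagged is therefore not read against chance. In YZ7 the flagged values were Hspb1 (313.9 CPM, next 59.1), Hspb2 (5.502, next 0.9867), Hspb6 (17.21, next 10.52) and Hspa12a (19.24, next 5.731). JM1233 stood apart for Hspb7 (31.94 CPM, next 3.894), Hspb2 (4.179, next 0.4963), Hspa4l (340.5, next 118.1) and Hspa12a (23.91, next 6.05). In JM779-T1 they were Hspa1a (47.1 CPM, next 14.56) and Bag3 (37.08, next 22.99). Single values were Hspa12a in JM833-T1 (42.47 CPM, next 15.66), Hspb8 in JM663-T2 (159.3, next 81.21), Hspa1a in YZ2 (29.58, next 6.358), Hsp90b1 in YZ6 (694.7, next 495.4) and Hsp90ab1 in JM1564 (2863, next 1987). Trp53 was lowest in YZ11 (10.83 CPM, next 41.36). YZ7 was highest in the smooth muscle and myoepithelial marker sum (1803 CPM) and JM1233 in the skeletal muscle sum (2688 CPM). YZ4 (1491 CPM) and JM1133 (359.5 CPM), the next tumors in these sums, held no flagged value. With a skeletal muscle score as covariate Hspb7 between the mutants went from -3.77 to 1.47. What part muscle cells have in the flagged values was not tested otherwise.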

How the results depend on the processing

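The number of members called in MaP R172H/- against MaP -/- tumors (7) was 11 with DESeq2's Wald test, 3 with no filter on low counts, 3 with a skeletal muscle score, 3 with an immediate early score, 4 with the tumors of 1 mouse summed, 2 at an absolute log2 fold change of 1 or more and 0 above 2. Leaving out single tumors gave 3 to 8. Over all genes the main fit called 1760, beside 3432 with DESeq2's Wald test, 1260 with no filter and 471 with the muscle score. With the immediate early score 1311 genes were called, and with the tumors of 1 mouse summed 1126. Without single tumors the calls over all genes were 1067 to 1866. In MaP R245W/- against MaP -/- tumors the count of 0 became 3 with DESeq2's Wald test, which called 424 genes. Between the mutants the count of 3 was 1 in the 12 mutant tumors alone, 5 without YZ7, JM1233 and JM779-T1 (chosen after seeing the data), 1 at an absolute log2 fold change of 1 or more and 1 above 2, and 1 to 3 without single tumors. All genes called there were 2114, beside 3703 with DESeq2's Wald test and 1410 with no filter. They were 1499 in the 12 mutant tumors alone, 2543 without YZ7, JM1233 and JM779-T1, and 1525 to 2362 without single tumors. Counts over all genes at the fold cutoffs are not given here, so the member counts at these cutoffs have no share beside them. Hspb7 between the mutants turned from -3.77 to 1.47 with the muscle score. The causes were not tested. For Trp53 slopes the count of members stayed 0 in each alternative run, while all genes called went from 0 to 25 (DESeq2's Wald test) and 5 (MaP R172H/- tumors alone). No paired analysis was possible because replicate numbers only name the tumors and the genotypes share no animals. Members at a few counts, such as Dnajc5g, are limited by depth.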

Other observations

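Immediate early genes, which respond within minutes to handling or growth signals, moved in both directions in MaP R172H/- against MaP -/- tumors. Of 10 genes, Junb rose (log2 fold change 1.27, edgeR adjusted p = 0.039), while Fos (-1.04, adjusted p = 0.0483) and Dusp1 (-1.76, adjusted p = 0.023) fell, and 0 were called in MaP R245W/- against MaP -/- tumors or between the mutants. Over all genes edgeR called 0% in MaP R245W/- against MaP -/- tumors, and 2.91% higher and 6.49% lower between the mutants. Among marker lists, 4 of 10 leukocyte, 2 of 8 fibroblast and 2 of 7 endothelial genes were lower and 1 of 9 smooth muscle and myoepithelial genes was higher in MaP R172H/- than in MaP -/- tumors. Over all genes 4.73% were called lower and 3.67% higher in this comparison, which crosses the instruments. Adipocyte and epithelial markers gave 0 calls of 10 each, with list medians of -2.998 and 1.2.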
